A study of Mus musculus with 28 samples.

Results

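Malat1, Neat1, Meg3 and Snhg11 are long noncoding RNAs known as abundant in brain, though Neat1 stood far below the others here. They were chosen by name, from a list of 8 such RNAs that also held Miat, Rian, Mirg and Peg13, and the 4 with a row of their own name in the count table are described here, of 25900 genes in all. Miat, Rian, Mirg and Peg13 are not analysed here. The rule itself uses names only.

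The RNAs were measured by polyA RNA sequencing of frontal cortex from C57BL/6 mice aged 20 months. Tardbp encodes TDP-43, a protein that binds RNA in the nucleus, and the knock-in allele of these mice changes it by Q331K, a substitution known from amyotrophic lateral sclerosis. There were 10 libraries of homozygous mice (HOM, 2 mutant alleles), 10 of heterozygous mice (HET, 1 mutant allele) and 8 of wild-type mice (WT, 0 mutant alleles). Depth, with M for 1e6 counts, was 30.5 to 62.6 M per library in HOM, 45 to 74.9 M in HET and 46.5 to 64.1 M in WT. The labels number the libraries without stating that every library is a different animal, so the p-values measure the spread between libraries, which may be technical in part. They name no litter or batch, and counts per gene do not separate the Tardbp alleles.

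Most RNAs of this group stay in the nucleus and act as RNA, not through a protein. Malat1 gathers in nuclear speckles, the bodies that store splicing factors. Neat1 is the scaffold of paraspeckles, nuclear bodies that form only on its long form, while its short form ends early with a polyA tail. Malat1 and the long form of Neat1 end in a triple helix instead of a polyA tail. Meg3 is made from the maternal copy of the imprinted Dlk1-Dio3 domain and is prominent in neurons. Snhg11 is a host gene of small nucleolar RNAs, also prominent in neurons. TDP-43 is known to prefer RNA with repeated UG, written GT in gene sequences, and crosslinking studies of human brain list Malat1, Neat1 and Meg3 among the RNAs it binds.

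All 4 genes lie on GRCm38. Malat1 (ENSMUSG00000092341) lies at chr19:5795690-5802671 on the minus strand and Neat1 (ENSMUSG00000092274) near it at chr19:5824708-5845478, also on the minus strand. Meg3 (ENSMUSG00000021268) lies at chr12:109541001-109571726 on the plus strand, and Snhg11 (ENSMUSG00000044349) at chr2:158375638-158386145 on the plus strand. GENCODE vM21 types Malat1, Neat1 and Meg3 as lincRNA and Snhg11 as protein_coding. Their exons together cover 6.983, 20.771, 18.089 and 8.521 kb. The deposited counts are not stated to use strand. The only gene of the table whose span, from start to end, overlapped a member's was Gm20417, on the plus strand at Malat1, with 0 to 8 counts per library.

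The reference transcripts differed widely in GT repeats, the letters TDP-43 is known to prefer, and the longest run of each is shown because the lengths set the 4 RNAs apart. The longest GENCODE vM21 transcript of each gene was searched for GTGTGT on its own strand, with overlapping matches counted. Meg3-209 (14.548 kb) held 48 matches, or 3.3 per kb, and its longest run of alternating G and T was 28 bases. Neat1-201 (20.771 kb) held 37 matches, or 1.78 per kb, with a longest run of 25 bases. Malat1-201 (6.983 kb) held 2 matches, or 0.286 per kb, and a longest run of 7 bases. Snhg11-201 (5.864 kb) held 0 matches and a longest run of 6 bases. That 0 depends on the first letter searched, since Snhg11-201 held 4 matches of TGTGTG, and the shorter isoform Snhg11-202 held 1 GTGTGT. The capitals below mark those runs, each in an exon with 16 bases on either side, at chr12:109565109-109565168 plus, chr19:5826011-5826067 minus, chr19:5799692-5799730 minus and chr2:158376138-158376175 plus.
Meg3: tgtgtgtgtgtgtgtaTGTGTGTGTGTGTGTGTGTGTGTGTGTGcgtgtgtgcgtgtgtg
Neat1: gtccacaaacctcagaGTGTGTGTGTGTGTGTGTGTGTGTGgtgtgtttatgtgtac
Malat1: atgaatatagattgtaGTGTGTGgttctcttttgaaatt
Snhg11: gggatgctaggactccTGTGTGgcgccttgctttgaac

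The rest of the transcriptome puts these rates in place. Of 15905 tested genes with a reference transcript, 66.9% held at least 1 GTGTGT and the median rate was 0.363 per kb. A higher rate than that of Meg3 was found in 4.31% of genes, than that of Neat1 in 8.91% and than that of Malat1 in 56.3%. Read as TGTGTG, the rates were 3.64 per kb in Meg3, 2.31 in Neat1, 0.682 in Snhg11 and 0.43 in Malat1. The median over the same genes was then 0.545 per kb. The position within the RNA differed as well. All 37 GTGTGT matches of Neat1 lay beyond the first 3172 bases, where the short form Neat1-202 ends, while a search for TGTGTG gave 45 beyond that point and 3 within it. Of the 11 Meg3 isoforms in the annotation, 9 held no GTGTGT, and the repeats sat in the 2 longest, with 48 in Meg3-209 and 7 in the other. Counts per gene do not show which isoform was made, and a match is not evidence of binding.

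Because polyA selection was used and Malat1 has no polyA tail, its longest run of A is shown too. It was 12 bases long and lay 298 bases before the end of Malat1-201, at chr19:5795968-5796019 on the minus strand, with the run in capitals.
Malat1: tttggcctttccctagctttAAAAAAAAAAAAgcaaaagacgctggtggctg

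Meg3 and Snhg11 varied together between libraries (r = 0.90), so the sequence around their first starts is shown for both, from 250 bases before to 50 after it. The promoters come from RefSeq (GRCm38.p6), at chr12:109540746-109541045 plus for Meg3 and chr2:158375463-158375762 plus for Snhg11. Both strands were searched for the cyclic AMP response element TGACGTCA, the CCAAT box CCAAT, the GC box GGGCGG and the TATA box TATAAA. The Meg3 window held 1 TGACGTCA, 1 CCAAT, 2 TATAAA matches that overlap on opposite strands, and no GGGCGG, and the matches are in capitals. The Snhg11 window held none of these letters. Among 32851 RefSeq promoter windows of this length, 1.79% held TGACGTCA, 37.4% CCAAT, 35.7% GGGCGG and 13.6% TATAAA.
Meg3: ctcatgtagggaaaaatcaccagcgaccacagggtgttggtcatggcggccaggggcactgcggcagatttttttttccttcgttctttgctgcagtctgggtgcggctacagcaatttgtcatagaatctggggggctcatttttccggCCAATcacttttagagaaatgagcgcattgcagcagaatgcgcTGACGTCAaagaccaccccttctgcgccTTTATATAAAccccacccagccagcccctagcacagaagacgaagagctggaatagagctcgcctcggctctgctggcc
Snhg11: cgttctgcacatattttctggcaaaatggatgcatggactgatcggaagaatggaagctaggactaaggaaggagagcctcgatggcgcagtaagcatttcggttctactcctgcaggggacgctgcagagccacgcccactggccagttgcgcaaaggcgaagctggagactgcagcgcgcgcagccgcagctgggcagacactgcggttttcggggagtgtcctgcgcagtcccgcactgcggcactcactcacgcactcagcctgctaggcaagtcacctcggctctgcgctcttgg

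The 4 RNAs together took 0.971 to 1.32% of all counts of a library, with a median of 1.14%. By mean CPM (counts per 1e6 counts, scaled between libraries by TMM), Meg3 ranked 4, Snhg11 10, Malat1 89 and Neat1 854 of 16110 tested genes. Levels between genes are compared per kb of exon. On that scale Snhg11 ranked 28, Meg3 34, Malat1 214 and Neat1 4531 of 15905 tested genes with a known exon length. Snhg11 averaged 426 ± 34.6 CPM per kb in HOM, 431 ± 25.3 in HET and 433 ± 38.9 in WT (SD, n = 10, 10 and 8). Meg3 came next, at 335 ± 25.3 CPM per kb in HOM, 364 ± 20.4 in HET and 376 ± 37.5 in WT. Malat1 averaged 137 ± 35.9 CPM per kb in HOM, 129 ± 18.2 in HET and 122 ± 8.19 in WT, and Neat1 10.4 ± 1.9, 10.4 ± 1.27 and 10.2 ± 1.6 in HOM, HET and WT. That order held in each of the 28 libraries, and only the ranges of Snhg11 and Meg3 overlapped between libraries. The length of Meg3 joins exons of all isoforms, so its level per kb is a lower one than that of a short isoform would be. The same holds for Snhg11 and for Neat1, whose short form ends at 3172 bases against the 20.771 kb used. Malat1 and the long form of Neat1 have no polyA tail, while the libraries were polyA selected. The order is one of counts over these lengths and may not be that of the RNA amounts.

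**Figure D1:**
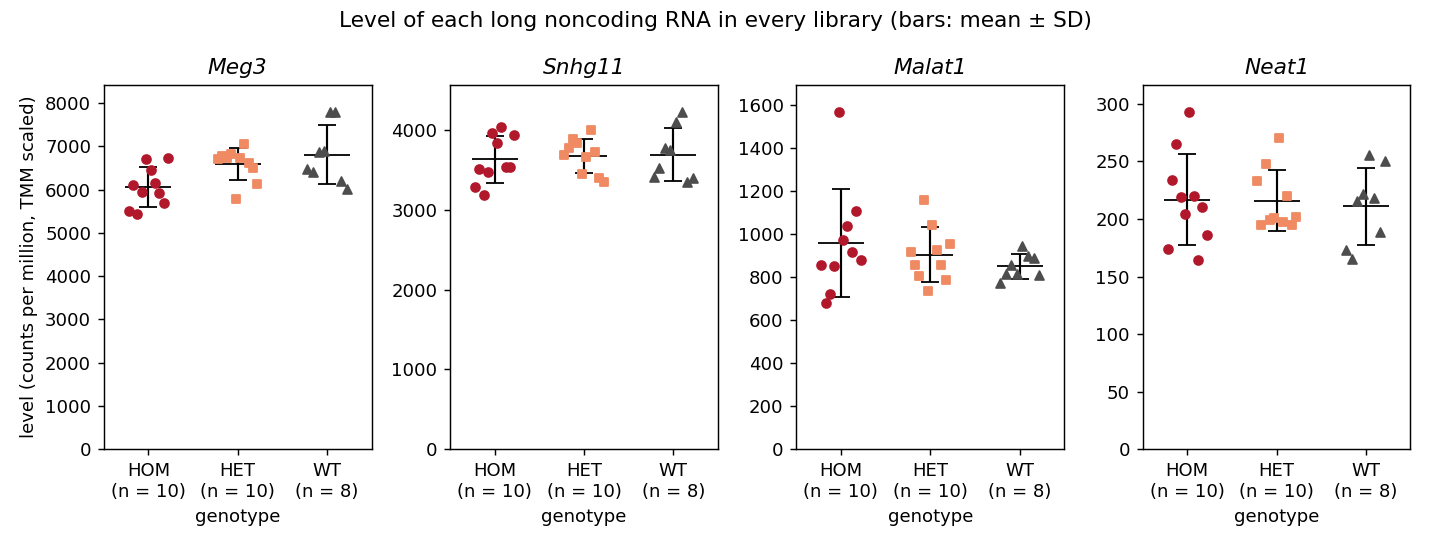
Level of each RNA in CPM (vertical axis, from 0) in every library, by genotype (HOM, HET, WT). Points are libraries and bars the mean ± SD. Meg3 averaged 6068 CPM in HOM, 6587 in HET and 6805 in WT, and 1 HOM library stood at 1568 CPM of Malat1.

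Meg3 was the 1 member of the 4 that passed the test between genotypes. Its mean level in HOM cortex was 0.892 times that in WT, and the HET mean lay between. The other members, Snhg11, Malat1 and Neat1, did not pass in any comparison.

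In HOM libraries Meg3 stood between 5435 and 6728 CPM with a median of 6025, in HET between 5783 and 7045 with a median of 6715, and in WT between 6018 and 7797 with a median of 6663. All 10 HOM libraries lay below the WT mean and 5 lay below the lowest WT library, so the groups overlapped. Meg3 averaged 6068 ± 458 CPM in HOM, 6587 ± 368 in HET and 6805 ± 678 in WT (SD, n = 10, 10 and 8). Its log2 fold change (HOM over WT) was -0.17 (SE 0.05, edgeR quasi-likelihood adjusted p = 0.0396), a fold of 0.892 with a 95% interval of 0.831 to 0.957. By the same test 7.61% of all genes were called in HOM against WT and 3.71% were called lower, so 1 call among 4 members says little about the members as a group. In bulk tissue, fewer cells of a type and less RNA per cell cannot be told apart.

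Along the number of mutant alleles Meg3 fell by 0.08 log2 units per allele (SE 0.02, edgeR adjusted p = 0.0343), where 7.78% of genes were called. That call was lost with limma voom (adjusted p = 0.055), without the 2 HOM libraries below 35 M counts (edgeR adjusted p = 0.0826), without WT 6 and HOM 3 together (edgeR adjusted p = 0.14), and without HOM 1, 3 or 9 or WT 5 or 6 alone (edgeR adjusted p between 0.0511 and 0.0897). The slope is fitted to the same libraries as HOM against WT and is not a second test of it. HET against WT was not past the threshold, at -0.05 (SE 0.05, edgeR adjusted p = 0.769), nor was HOM against HET, at -0.12 (SE 0.05, edgeR adjusted p = 0.467). Of all genes, 0% were called in HET against WT by edgeR, with 1547 at an unadjusted p under 0.05, 12 called by DESeq2 and 14 by limma voom. In HOM against HET 0.0372% were called. The departure of HET from a straight line was not past the threshold for Meg3 either, at -0.07 (SE 0.08), nor for any gene (456 at an unadjusted p under 0.05).

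The call on Meg3 in HOM against WT was close to the threshold. It was lost without HOM 1, 2, 3, 4, 8 or 9 and without WT 3, 4, 5 or 6, each left out alone, with edgeR adjusted p between 0.0505 and 0.108, and the log2 fold change then ran from -0.17 to -0.14. It was lost with limma voom (adjusted p = 0.053), with a fit of HOM and WT alone (edgeR adjusted p = 0.0727), without the 2 HOM libraries below 35 M counts (edgeR adjusted p = 0.0854) and without WT 6 and HOM 3 together (-0.12, edgeR adjusted p = 0.156). The log2 fold change was below 0 in each of these fits.

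**Figure D2:**
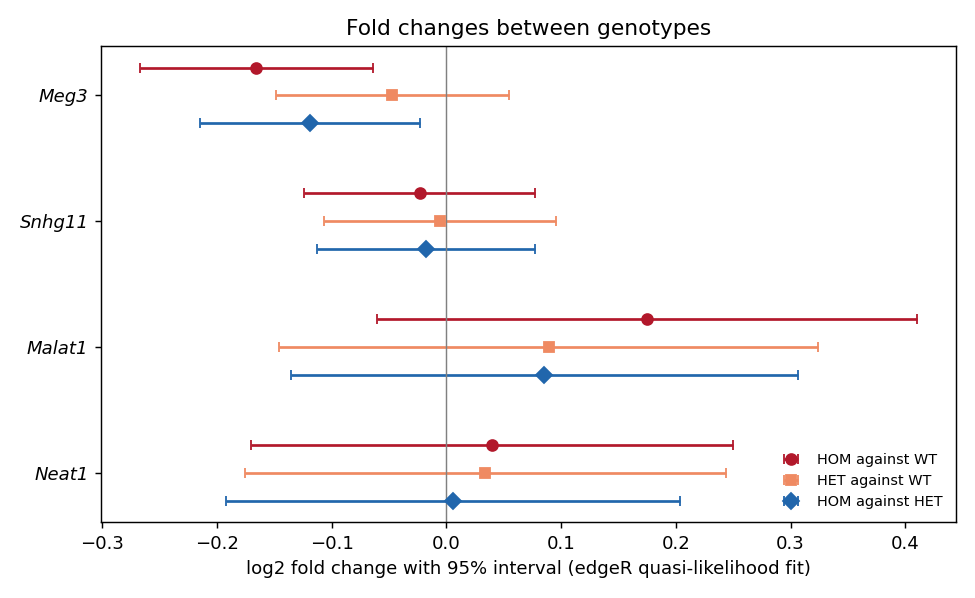
Log2 fold changes (horizontal axis) of Meg3, Snhg11, Malat1 and Neat1 for HOM against WT, HET against WT and HOM against HET, with 95% intervals of the edgeR fit. The intervals of Meg3 in HOM against WT and HOM against HET, which are not adjusted, lie below 0, and those of Snhg11, Malat1 and Neat1 all hold 0.

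Snhg11 overlapped between the 3 genotypes. It stood between 3190 and 4043 CPM in HOM with a median of 3540, between 3351 and 3996 in HET with a median of 3703, and between 3342 and 4226 in WT with a median of 3637. The mean was 3632 ± 295 CPM in HOM, 3677 ± 216 in HET and 3691 ± 332 in WT. Snhg11 had a log2 fold change (HOM over WT) of -0.02 (SE 0.05, edgeR adjusted p = 0.815), with a 95% interval from -0.12 to 0.08.

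Meg3 and Snhg11 rose and fell together from library to library. With the genotype means removed, their log2 CPM correlated at Pearson r = 0.90 and Spearman rho = 0.90 over 28 libraries (permutation adjusted p = 6e-05 for each over 6 pairs, from the smallest p that 100000 resamples can give). Leaving out the 2 libraries farthest from the Meg3 median gave r = 0.91, and within a genotype r ran from 0.81 to 0.97. Among 10148 other genes of at least 10 CPM, Snhg11 was the most like Meg3, followed by Leng8 (0.87) and Ubp1 (0.87). Snhg11 itself was most like Meg3 (0.90), Ubp1 (0.90) and Akap8 (0.89). The 4 members share each library's scaling, and 4.58% of genes had r above 0.5 with Meg3.

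The Meg3 level relative to Snhg11 in the same library spread less than the level itself. The SD of the log2 ratio was 0.06 in HOM, 0.05 in HET and 0.03 in WT, against 0.11 for Meg3 log2 CPM within genotypes. This ratio of counts needs no scaling between libraries, and it was chosen after the values were seen. In HOM libraries it ran from 1.52 to 1.74 with a median of 1.69, in HET from 1.68 to 1.91 with a median of 1.79, and in WT from 1.77 to 1.90 with a median of 1.84. Every HOM library lay below every WT library, while HET overlapped both. Of 16109 genes set against Snhg11 in the same way, 0.031% lay lower in every HOM library than in every WT library. These were Meg3 and 4 genes that averaged at most 8.17 CPM, BC018473, CT573034.1, Mypn and Ovgp1. Snhg11 was picked as the gene most like Meg3, and the other genes were not set against their own closest gene. The share of 0.031% is therefore no even background for Meg3. By CPM alone 0.223% of 16110 genes lay lower in every HOM library than in every WT library, and Meg3 was not among them. The mean ratio of Meg3 to Snhg11 was 1.67 ± 0.0629 in HOM, 1.79 ± 0.0642 in HET and 1.84 ± 0.0431 in WT (SD, n = 10, 10 and 8).

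On the log2 scale the Meg3 to Snhg11 ratio differed by -0.14 between HOM and WT (SE 0.02, exact two-sided permutation test, p = 4.57e-05, the smallest that 43758 splits allow). Between HOM and HET it differed by -0.10 (SE 0.02, permutation p = 0.0004), and between HET and WT by -0.04 (SE 0.02, exact permutation p = 0.0736). Adjusted over the 18 tests of ratios between members these permutation p-values were 0.000823, 0.0036 and 0.303. Snhg11 is the gene most like Meg3 within genotypes in these same libraries, which makes the spread of this ratio small. The p-values and their adjustment do not allow for that, so they overstate the evidence on Meg3. The Meg3 to Malat1 ratio differed by -0.30 between HOM and WT (SE 0.10, exact permutation adjusted p = 0.0557), and the other ratios between members gave no adjusted p under 0.05.

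**Figure D3:**
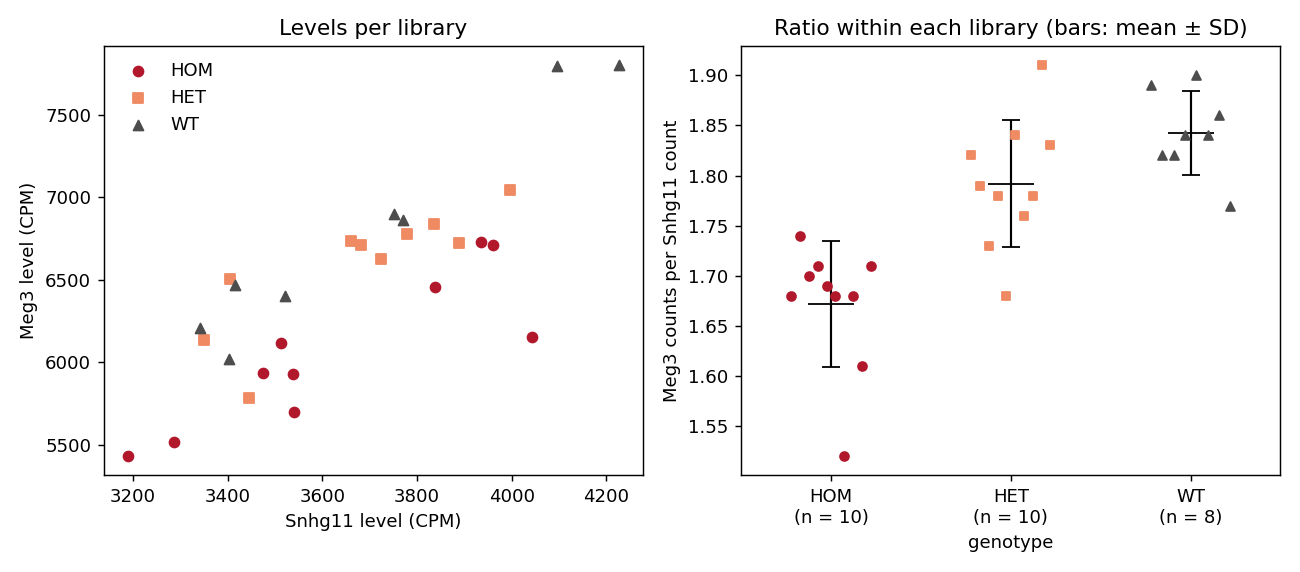
Left, Meg3 against Snhg11 level (CPM) in each of 28 libraries. Right, the ratio of Meg3 to Snhg11 counts by genotype (points are libraries, bars the mean ± SD, and the vertical axis does not start at 0). HOM libraries reach 1.74 and WT libraries begin at 1.77.

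The ratio of Meg3 to the next genes most like it gave the same order of genotypes. Against Leng8 the Meg3 ratio averaged 17.2 ± 0.998 in HOM, 18.8 ± 0.509 in HET and 20.2 ± 0.574 in WT, and against Ubp1 52.1 ± 1.8, 56.8 ± 2.3 and 58.3 ± 2.84. In both, each HOM library lay below each WT library, as did 0.0559% of 16109 genes set against Leng8 and 0.0559% of those set against Ubp1. Leng8 and Ubp1 too were picked for their likeness to Meg3, so these shares are no even background either. By level Leng8 stood at 0.07 log2 in HOM over WT (SE 0.05, edgeR adjusted p = 0.44), in the direction that enlarges the difference of its ratio, and Ubp1 at -0.0012 (SE 0.03, edgeR adjusted p = 0.989). The log2 difference of HOM and WT was -0.24 (SE 0.03) against Leng8 and -0.16 (SE 0.03) against Ubp1, each with an exact permutation p of 4.57e-05 (adjusted p = 0.000137 over 6 tests). Between HET and WT the Meg3 to Leng8 ratio differed by -0.10 (SE 0.02, exact permutation adjusted p = 0.000439) and the Meg3 to Ubp1 ratio by -0.04 (SE 0.03, exact permutation adjusted p = 0.249). By level Leng8 stood at 0.05 log2 in HET over WT (SE 0.05, edgeR adjusted p = 0.768) and Meg3 at -0.05 (edgeR adjusted p = 0.769). Both values lower the Meg3 to Leng8 ratio, and neither passed. The ratios to Leng8 and Ubp1 share the Meg3 counts and are not separate tests of Meg3. Their p-values do not allow for the choice of Leng8 and Ubp1 either.

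When Snhg11 log2 CPM entered the edgeR fit of all genes as a covariate, Meg3 stood at -0.14 log2 in HOM over WT (SE 0.03, edgeR adjusted p = 0.00112), where 7.73% of genes were called. HOM against HET was then -0.10 (edgeR adjusted p = 0.111), where 0.0683% were called. This fit uses the same counts as the Meg3 to Snhg11 ratio, and Snhg11 was picked from these libraries for its likeness to Meg3. It is therefore not a separate test of Meg3. With single HOM or WT libraries left out, the log2 difference of the Meg3 to Snhg11 ratio ran from -0.15 to -0.13. Groups that do not overlap cannot begin to when a library is removed, so its sign and its call were fixed in those values.

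**Figure D4:**
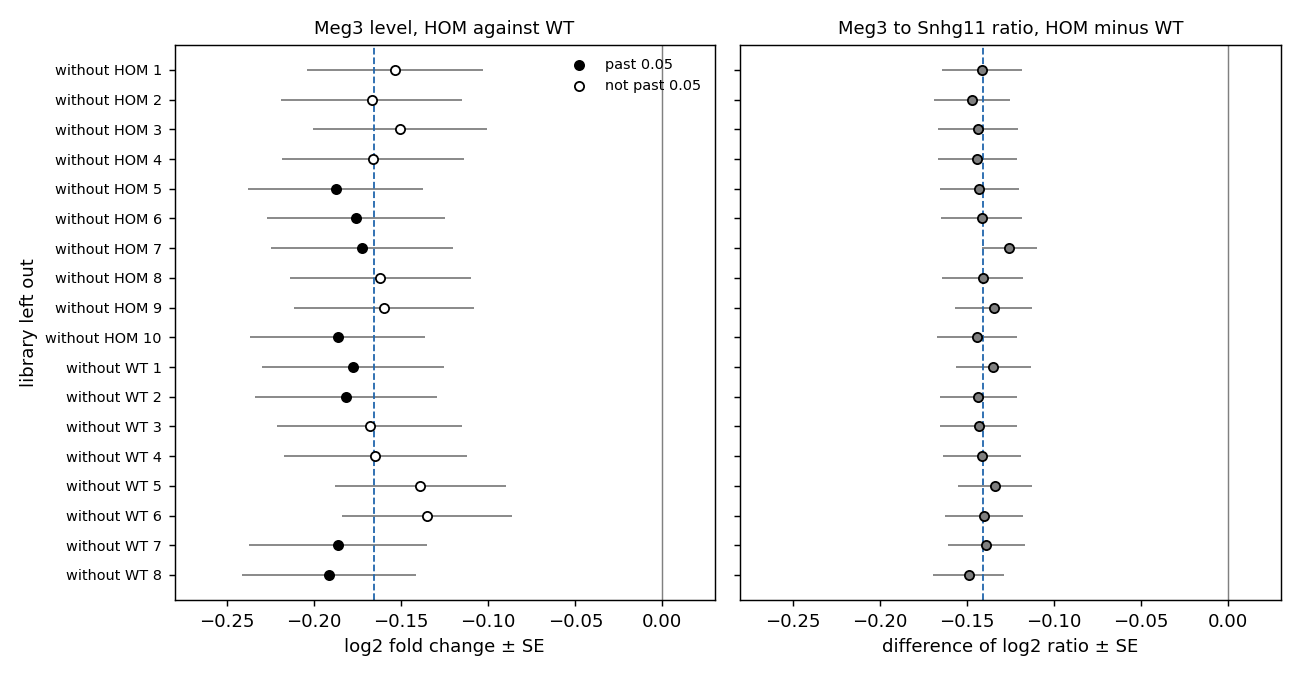
Effect of leaving out each HOM or WT library (rows) on the log2 fold change of Meg3 in HOM against WT (left, ± SE) and on the log2 difference of the Meg3 to Snhg11 ratio (right, ± SE). On the left, filled points are past 0.05 (edgeR adjusted p) and open ones are not. On the right, grey points are values with no call marked, and the dashed lines are the values with all libraries. The level loses the call without 10 of the libraries.

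Malat1 spread widely between HOM libraries and little between WT libraries. In HOM libraries it stood between 679 and 1568 CPM with a median of 898, in HET between 734 and 1160 with a median of 887, and in WT between 772 and 944 with a median of 836. The coefficient of variation was 26.1% in HOM, 14.1% in HET and 6.73% in WT, and no test of the spread was run. For Neat1 it was 18.2% in HOM, 12.2% in HET and 15.7% in WT. Malat1 thus had the largest coefficient of the 4 RNAs in HOM and the smallest in WT, and without HOM 5 its coefficient in HOM was 15.5%, below that of Neat1. The mean was 959 ± 250 CPM in HOM, 904 ± 127 in HET and 850 ± 57.2 in WT.

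The log2 fold change of Malat1 in HOM over WT was 0.17 (SE 0.11, edgeR adjusted p = 0.361), with an interval of the fold from 0.959 to 1.33. The value rested on HOM 5, the library at 1568 CPM, and without it the log2 fold change was 0.06. HET against WT gave 0.09 (SE 0.11, edgeR adjusted p = 0.816). Within genotypes the SD of Malat1 log2 CPM was 0.24, against a median of 0.07 over 2282 genes of at least 100 CPM, and 1.1% of those genes had a larger SD.

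The gene most like Malat1 was mt-Nd6, a mitochondrial subunit of respiratory complex I, with r = 0.68 over 28 libraries, followed by Crebzf (0.66) and Slc25a36 (0.63). The level of mt-Nd6 was 84.8 ± 18.7 CPM in HOM, 74.6 ± 7.26 in HET and 73.0 ± 5.08 in WT, and HOM 5 again stood highest, at 132 CPM. The correlation of Malat1 with mt-Nd6 was not recomputed without HOM 5 or within a genotype. How far it rests on that library was not tested. Malat1 has no polyA tail, and whether polyA selection caught it equally in every library was not tested either. Malat1 also followed Snhg11 (r = 0.49, permutation adjusted p = 0.0227) and Meg3 (r = 0.44, permutation adjusted p = 0.0368). For Meg3 the rank correlation was 0.42 with a permutation adjusted p of 0.0503. With mt-Nd6 as a covariate the log2 fold change of Malat1 in HOM over WT was -0.01 (edgeR adjusted p = 0.955), where 8.06% of genes were called. The covariate was picked from these same libraries for its likeness to Malat1 and shares the high value in HOM 5. That fit is therefore no separate test of Malat1, whose log2 fold change without HOM 5 was 0.06.

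Neat1 had the lowest level of the 4 and no difference between genotypes past the threshold. It stood between 164 and 293 CPM in HOM with a median of 215, between 195 and 270 in HET with a median of 201, and between 165 and 256 in WT with a median of 217. The groups overlapped. The mean was 217 ± 39.5 CPM in HOM, 216 ± 26.3 in HET and 211 ± 33.2 in WT, and the log2 fold change (HOM over WT) 0.04 (SE 0.10, edgeR adjusted p = 0.852). The interval of that fold ran from 0.889 to 1.19, so a true change within it remains possible. The smallest change that the test could call was not worked out.

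Neat1 followed the markers of oligodendrocytes, the myelin-forming cells. With genotype means removed, Neat1 correlated with the oligodendrocyte marker score, the mean log2 CPM of 8 markers, at r = 0.83 and rho = 0.76 (permutation adjusted p = 0.0004 and 0.0016 over 40 relations of members with marker scores and depth). Without the 2 libraries farthest from the median score r was 0.78, and within a genotype it ran from 0.76 to 0.93. No other relation of the 40 passed, and depth and Neat1 gave r = 0.07. Its correlation with Malat1 was -0.01, with Meg3 0.21 and with Snhg11 0.21.

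The genes most like Neat1 were Tmem63a (0.88), a stretch-activated ion channel, Slc12a2 (0.88), a sodium, potassium and chloride cotransporter, and Plekhg3 (0.86). The summed level of the 8 oligodendrocyte markers ran from 3482 to 6689 CPM in HOM, from 3571 to 5253 in HET and from 3645 to 6288 in WT, and none of the 8 was called. Unlike the other CPM values, sums of markers are taken over library totals without TMM scaling. With the score as a covariate the log2 fold change of Neat1 was 0.12 in HOM over WT (SE 0.06, edgeR adjusted p = 0.178), where 8.73% of genes were called, and 0.14 in HET over WT (edgeR adjusted p = 0.438), where 0.00621% were.

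**Figure D5:**
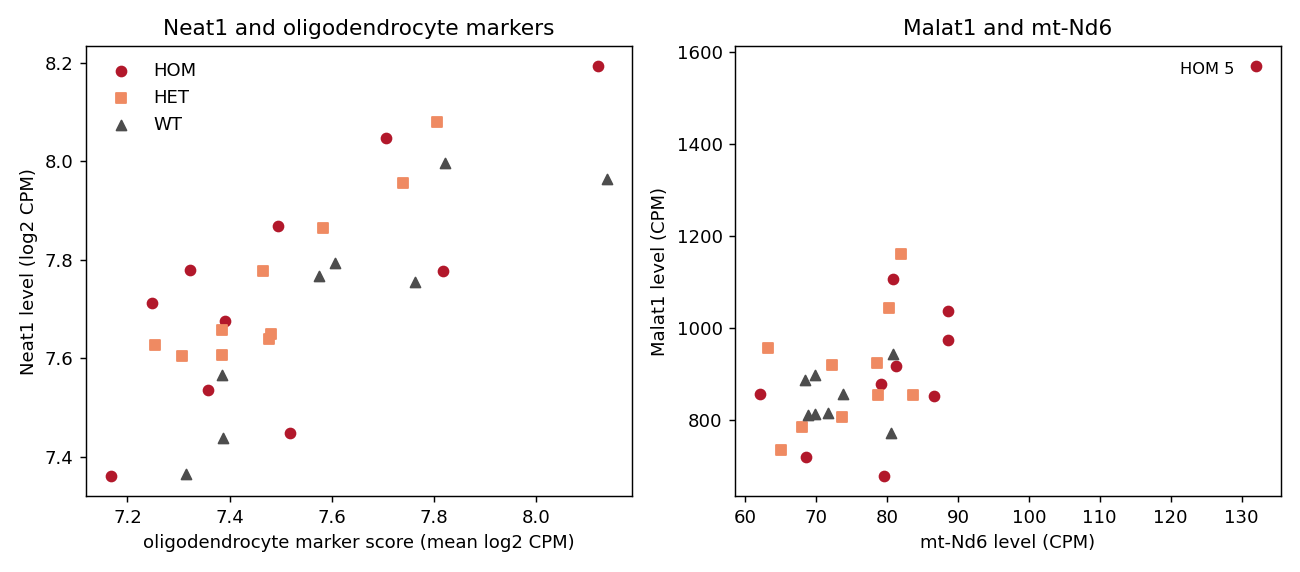
Left, Neat1 log2 CPM against the oligodendrocyte marker score (mean log2 CPM of 8 markers) in 28 libraries. Right, Malat1 against mt-Nd6 (both CPM), with HOM 5 at 132 CPM of mt-Nd6 and 1568 CPM of Malat1. Points are libraries, coloured by genotype.

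Of 14 other tested genes in and beside the imprinted Dlk1-Dio3 domain of Meg3, 1 was higher and 0 lower in HOM against WT, where 3.9% of all genes were called higher and 3.71% lower. Their median log2 fold change was 0.03, against 0.005 over all genes. The 1 was Degs2, a sphingolipid hydroxylase, at 2.28 ± 0.188 CPM in HOM, 2.22 ± 0.248 in HET and 1.73 ± 0.271 in WT, or 0.40 log2 in HOM over WT (SE 0.09, edgeR adjusted p = 0.00457). The paternally expressed genes of the domain were low: Dlk1, a Notch pathway ligand, averaged 1.84 CPM in HOM and 1.95 in WT, Rtl1, a retrotransposon-derived gene, 0.168 and 0.121, and Dio3, a deiodinase of thyroid hormone, 0.804 and 0.706 CPM in HOM and WT. Of 9 tested neighbours of Malat1 and Neat1, 0 were called in either direction (median 0.05).

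Of 28 genes of paraspeckle proteins, 1 was higher and 2 were lower in HOM against WT (median 0.02), beside 7.61% of all genes called in either direction. A count of 3 does not set the list apart from that background. The core proteins Sfpq and Nono did not pass. Sfpq averaged 234 ± 17 CPM in HOM and 229 ± 15.1 in WT, and Nono averaged 112 ± 4.21 CPM in HOM and 111 ± 2.16 in WT. Those called were Tardbp itself at 0.12 (SE 0.03, edgeR adjusted p = 0.0185), and, on the lower side, Hnrnpk at -0.09 (SE 0.02, edgeR adjusted p = 0.0173) and Hnrnpr at -0.13 (SE 0.04, edgeR adjusted p = 0.0367). Hnrnpk, an RNA-binding protein known from human cells to be needed for the long form of Neat1, averaged 304 ± 11.4 CPM in HOM, 313 ± 7.98 in HET and 324 ± 7.93 in WT. Exons of Tardbp, Hnrnpk and Degs2 overlap those of Masp2, Rmi1 and Evl on the other strand, so their values are uncertain to that extent.

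Of 21 tested genes of nuclear speckle proteins, the home of Malat1, and of 12 genes of nuclear RNA retention and decay, 0 were called in either direction (medians 0.0067 and -0.0044). A list meant to hold other long noncoding RNAs of brain was drawn up by name. The type of each gene in the reference was not checked, so the list may hold protein-coding genes, also among those named below. Of its 26 tested genes, 0 were higher and 3 lower in HOM against WT, beside 3.71% of all genes called lower, with a median of -0.0042. These were A830018L16Rik at -0.14 (edgeR adjusted p = 0.0189), 9430008C03Rik (reference name Snhg17) at -0.14 (edgeR adjusted p = 0.0435) and 2610017I09Rik (reference name Pantr1) at -0.13 (edgeR adjusted p = 0.0467). A830018L16Rik averaged 78.9 ± 5.36 CPM in HOM, 85 ± 4.2 in HET and 87.1 ± 3.54 in WT. In HET against WT none of the genes in these lists was called. Of the Peg13-Kcnk9 domain, 6 genes were tested and 0 called in HOM against WT. Kcnk9, an imprinted potassium channel gene, averaged 16.6 ± 1.15 CPM in HOM and 17.3 ± 0.784 in WT, and Trappc9, a trafficking gene that holds Peg13 in an intron, 57.4 ± 3.92 and 56.6 ± 1.56 CPM.

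Markers of other cells moved between HOM and WT beside the fall of Meg3, where 3.9% of all genes were called higher and 3.71% lower. Of 8 microglial markers 6 were higher, with a summed level of 368 to 458 CPM in HOM, 326 to 386 in HET and 312 to 377 in WT. Of 8 astrocyte markers 3 were higher, with sums of 2490 to 2991 CPM in HOM, 2313 to 2689 in HET and 2245 to 2598 in WT, as were 3 of 8 endothelial and mural and 1 of 8 meningeal markers. Of 8 neuronal markers 1, Gad1, was lower, and the sums ran from 7812 to 8861 CPM in HOM, from 8153 to 8957 in HET and from 8042 to 8906 in WT. These sums too are CPM over library totals, without TMM scaling. No marker was at 0 in all libraries. None of these scores correlated with Meg3 past the threshold once genotype means were removed, and their part in the result was not tested.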

How the data were processed

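The data are 28 polyA RNA libraries of frontal cortex. Extraction used TRIsure followed by an RNeasy column, and the library kit was Illumina's stranded mRNA kit, per the labels' protocols. Trimming used Trim Galore 0.4.3 and alignment HISAT2 2.0.5 on GRCm38, per the submitters' processing notes. How reads were counted, on which strand and with which annotation is not given in the sources used here. What the authors deposited are whole, unscaled read counts per gene, as the values show. The table's 25965 rows were summed to 25900 identifiers, since 57 genes filled 122 rows. All 28 columns were matched to library titles, which also give the genotype.

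The filterByExpr filter kept 16110 genes, and TMM set the library scaling. Genotypes were compared with edgeR 4.0.16 in R 4.3.3 (glmQLFit and glmQLFTest, robust, two-sided), 1 model holding every library and another giving the slope, and Benjamini-Hochberg adjustment over all genes at 0.05. Log2 CPM had a prior count of 2. Ratios were compared by exact permutation, or with 100000 resamples between groups of 10. Correlations used log2 CPM with genotype means removed, and the 3 genes most alike were named for each member. The members, gene lists and naming rules were chosen with earlier results of these data known. The named genes of a list are those called in HOM against WT, with reference members beside them. Ratios, their leave-one-out values and the covariate fits were chosen after seeing the data. The fit was tested on simulated data. The alternatives tried were library totals, DESeq2 1.42.0, DESeq2 size factors inside edgeR, limma 3.58.1 voom with quality weights, no filter, only the groups compared, a replicate block, single libraries left out, libraries below 35 M counts left out, and WT 6 and HOM 3 left out. These last 2 are the ends of the first principal component in an earlier analysis. Among 118 pairs of libraries of 1 genotype the smallest chi-square was 7.56 per degree of freedom, so none agreed within sampling noise. The lowest count of a member was 5657, a counting error of 1.33%, so the spread between libraries and not depth limits the members.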

Additional observations from a re-analysis of the deposited data

Results flagged for a closer look

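Among 18 groups of libraries tested with Dixon's rule (the 4 members, the ratio of Meg3 to Snhg11 and mt-Nd6, each in 3 genotypes), 2 held a library far from the others, where chance flags about 1 in 20. The 2 are not independent, since mt-Nd6 was included as the gene most like Malat1 over the same libraries. Malat1 stood at 1568 CPM in HOM 5, against 679 to 1107 CPM in the other HOM libraries. In the same library mt-Nd6 stood at 132 CPM, against 62.1 to 88.6 CPM in the other HOM libraries.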

How the results depend on the processing

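Over 12 alternative fits (11 for the slope) Meg3 stayed lower in HOM than in WT, between -0.23 and -0.12 on the log2 scale, and its slope between -0.11 and -0.06. The number of members called in HOM against WT was 0 in place of 1 with limma voom, only the groups compared, the replicate block, without libraries below 35 M counts and without WT 6 and HOM 3, and 0 to 1 with single libraries left out. For the slope it was 0 with limma voom, the block and both sets of libraries left out, and 0 to 1 with single libraries left out. The log2 difference of the Meg3 to Snhg11 ratio ran from -0.149 to -0.1256 over 20 alternatives that only leave out libraries, in which its sign and call could not change.

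All genes called in HOM against WT numbered 1226, 737 with the block, 509 without WT 6 and HOM 3, and 595 to 1345 with single libraries left out (595 without WT 6, 725 without WT 2). For the slope they numbered 1254, 821 with the block, 608 without WT 6 and HOM 3, and 681 to 1401. For HET against WT they numbered 0, 1 with library totals or the oligodendrocyte score, 12 with DESeq2, 14 with voom, 4 with only the groups compared, 2 without libraries below 35 M counts or with mt-Nd6, and 0 to 3. For HOM against HET they numbered 6, 50 with DESeq2, 53 with voom, 11 with Snhg11 as covariate, 10 with mt-Nd6, and 3 to 15.

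Signs that turned belonged to values past no threshold. With voom, Snhg11 was at 0.0082 in HET against WT and 0.0001 for the slope, and Neat1 at -0.0109 in HOM against HET. With the block, Snhg11 was at 0.0068 in HET against WT and Neat1 at -0.0004 in HOM against HET. Without libraries below 35 M counts Snhg11 was at 0.0051 in HOM against HET. Without WT 6 and HOM 3 Snhg11 was at 0.0244 in HOM against WT, 0.0236 in HET against WT, 0.0008 in HOM against HET and 0.0116 for the slope, and Neat1 at -0.0309 in HOM against HET. In HOM against HET Neat1 was at -0.0184 with the oligodendrocyte score and -0.0124 with mt-Nd6. With mt-Nd6 Malat1 was at -0.0104 in HOM against WT, -0.0727 in HOM against HET and -0.005 for the slope. The cause was not tested.

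With single libraries left out, Neat1 ran from -0.0175 to 0.0807 in HOM against WT, -0.0132 to 0.076 in HET against WT, -0.0514 to 0.046 in HOM against HET and -0.0097 to 0.0393 for the slope. Snhg11 ran from -0.0461 to 0.007, -0.0269 to 0.0247, -0.0382 to 0.0008 and -0.0234 to 0.0021 in the same order, and Malat1 from -0.0223 to 0.1313 in HOM against HET. Searching TGTGTG gave 3 matches in Malat1, 48 in Neat1, 53 in Meg3 and 4 in Snhg11, where GTGTGT gave 0. Same-numbered libraries correlated above 0.1 in 2 of 8 HOM and WT pairs, 3 of 8 HET and WT pairs and 6 of 10 HOM and HET pairs, not in every pair, so the numbers were not taken to pair libraries. Between HOM and HET the median r was 0.172 for the same number and -0.031 for other numbers, and 3 of 10 libraries correlated best with their own number, a hint from the data and not from the design. With the block Meg3 had an edgeR adjusted p of 0.0838 in HOM against WT.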
